A study of Danio rerio with 10 samples.

Results

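Expression of 6 genes of the embryonic skin was described in whole zebrafish embryos: the keratin genes krt15, krt94 and krt17, the desmosome gene pkp3a, the plakin gene evpla and the annexin gene anxa2a. The genes were found by their symbol in the array's annotation, or by the current symbol of their Entrez ID, and each was read by 1 probe set, which makes 6 of the 15502 tested probe sets and 6 of the 8793 named genes. Total RNA of wild-type embryos 72 h after fertilization was hybridised to 10 one-colour Affymetrix arrays. There were 3 arrays of Atg7 and Bdh2 dual morphants, 1 of Bdh2 morphants, 3 of Atg7 morphants and 3 of control morphants. All embryos, the controls included, had been injected at the 1- to 2-cell stage with a morpholino, a synthetic oligonucleotide that binds a transcript and keeps it from being translated or spliced, in a volume of 1 to 2 nL at 130 micromol/L. The labels do not say what the control morpholino binds, whether the dual injection held 130 micromol/L of each oligonucleotide or of both together, or whether replicate arrays came from separate clutches. The p-values therefore measure the spread between these arrays, which may be technical. Atg7 acts in the conjugation step of autophagosome formation, and Bdh2 is a cytosolic dehydrogenase linked to the mammalian siderophore.

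Keratins are the intermediate filament proteins of epithelial cells, built from pairs of a type I and a type II chain. Desmosomes anchor these filaments at the cell border, where plakophilins bind the tails of desmosomal cadherins and join them to plakins. The skin of a young zebrafish is a thin sheet of outer periderm cells over a basal layer that rests on a basement membrane, with ionocytes and mucus-secreting cells between them. The names krt15 and krt17 come from mammalian type I keratins, krt15 being known there from basal cells and krt17 from skin appendages and injured skin. Envoplakin, encoded by evpla, is a plakin of the mammalian cornified envelope and, in zebrafish, of the actin ridges on periderm cells. Annexin A2, encoded by anxa2a, is a calcium-dependent protein that binds membrane phospholipids and actin.

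Values are the deposited log2 intensities, on which a difference of 1 is a 2-fold change, and differences carry standard errors (SE) from one limma fit of all 10 arrays with Benjamini-Hochberg adjustment over the 15502 probe sets and a threshold of 0.05. The fit assumes that the single Bdh2 array varies as the other groups do, and no comparison with it has a replicate check. Comparisons against control share the control arrays, and those are set side by side here without a test of their likeness. In RNA of whole embryos, fewer cells of a type and less RNA per cell cannot be told apart. Array medians lay between 6.33 and 6.38. The actin 3 prime minus 5 prime difference, a sign of RNA quality, ranged over 3.83 to 3.91 in dual, 3.86 to 4.05 in Atg7 and 3.41 to 3.53 in control arrays and was 4.30 in the Bdh2 array. The same difference for GAPDH was 1.67 to 1.72 in dual, 1.70 in Bdh2, 1.53 to 1.77 in Atg7 and 1.53 to 1.63 in control arrays, so that Atg7 and control overlapped. The part of RNA quality in the results below was not tested.

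The 6 genes moved in different ways. krt15 and krt94 fell to between 27.7% and 44.4% of the control level in both groups given the Bdh2 morpholino, while krt17 rose in both. pkp3a and anxa2a were highest in Atg7 morphants, and evpla was higher than in control in all 3 other groups. In dual minus control all 6 passed the threshold, 3 higher and 3 lower, where 32.5% of all probe sets did, 16.7% higher and 15.9% lower. In Bdh2 minus control 5 passed, 2 higher and 3 lower, against 28.2% of all probe sets (15.0% higher and 13.2% lower). In Atg7 minus control 4 passed, all of them higher, against 9.91% of all probe sets (6.26% higher and 3.64% lower). The genes were chosen with earlier results of these data known, the rises of pkp3a, evpla and anxa2a in Atg7 morphants among them. These counts, and those of the 6 genes in the comparisons below, are therefore no test of the genes against all probe sets. The keratin, desmosome and annexin lists below take in the 6 genes, and all lists were chosen with earlier results known. Their counts and medians are no such test either.

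**Figure D1:**
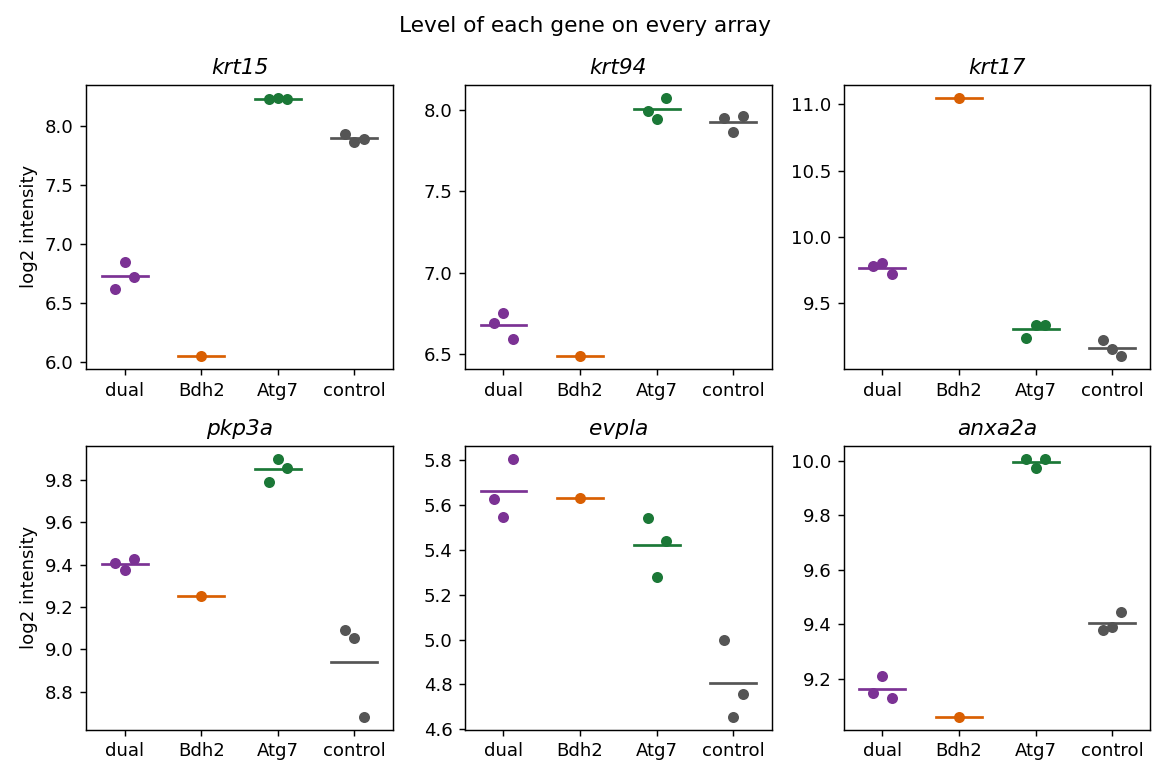
Deposited log2 intensity (y axis, a separate scale in each panel) of each gene on the 10 arrays, grouped on the x axis as dual, Bdh2, Atg7 and control morphants. Points are arrays and lines are group means; krt15 and krt94 are low, and krt17 high, on the 4 arrays with the Bdh2 morpholino.

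krt15 stood at 6.62, 6.85 and 6.72 in the dual arrays, at 6.05 in the Bdh2 array, at 8.23, 8.24 and 8.23 in the Atg7 arrays and at 7.93, 7.87 and 7.90 in the control arrays. The 4 arrays with the Bdh2 morpholino lay below the 6 without it, and the 3 Atg7 arrays lay above all controls. In dual minus control krt15 fell by 1.17 on the log2 scale (SE 0.0657, adjusted p = 9.65e-08), to 44.4% of the control level. Only 84 of the 15502 probe sets, krt15 included, fell as far. The fall was deeper in the Bdh2 array (-1.85 ± 0.093, adjusted p = 6.65e-08, 27.7% of the control level). In Atg7 minus control krt15 rose by 0.34 ± 0.066 (1.26-fold, adjusted p = 0.00756), so that the 2 morpholinos given alone moved it in opposite directions.

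krt94 followed the same course apart from the Atg7 arrays. It stood at 6.69, 6.75 and 6.59 in the dual arrays, at 6.49 in the Bdh2 array, at 8.0, 7.95 and 8.08 in the Atg7 arrays and at 7.95, 7.87 and 7.96 in the control arrays. The 4 arrays with the Bdh2 morpholino again lay below the rest, whereas Atg7 and control arrays overlapped. krt94 fell by 1.25 in dual minus control (SE 0.065, adjusted p = 5.14e-08, 42.0% of the control level) and fell by 1.44 in Bdh2 minus control (SE 0.0919, adjusted p = 4.78e-07, 36.8%). Its difference in Atg7 minus control was 0.078 ± 0.065 (adjusted p = 0.493).

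krt94 and krt15 are close neighbours on chromosome 11 of the GRCz12tu assembly, with 1 protein-coding gene between them, the keratin gene krt98, which had no named probe set. The keratin genes next to the pair did not share its fall in the Bdh2 array. Of these, krt93 was read below the array medians (control mean 5.056), where a fall may not show. krt93, on the far side of krt94, was at 0.010 in dual morphants (adjusted p = 0.941) and rose in the Bdh2 array by 0.32 (adjusted p = 0.0489). krt99, on the far side of krt15, fell by 0.24 in dual morphants (adjusted p = 0.0493) and rose in the Bdh2 array by 0.90 (adjusted p = 0.000168). Adjacent keratin genes of this cluster thus had differences of opposite sign in the same array.

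krt17, on chromosome 19, rose with the Bdh2 morpholino. It stood at 9.78, 9.80 and 9.72 in the dual arrays, at 11.05 in the Bdh2 array, at 9.24, 9.34 and 9.34 in the Atg7 arrays and at 9.22, 9.16 and 9.10 in the control arrays. The Bdh2 array was far above all others, and the dual arrays lay between it and the remaining 6. krt17 was 3.70-fold higher in Bdh2 than in control (1.89 ± 0.085, adjusted p = 2.77e-08), a rise that 27 probe sets of the array, krt17 among them, reached. In dual minus control it rose by 0.61 ± 0.060 (1.52-fold, adjusted p = 1.32e-05). In Atg7 minus control it was at 0.14 ± 0.060, which did not pass the threshold (adjusted p = 0.158).

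The probe set of krt17 shares the number in its name with 4 others, of which 1 is assigned to 2 keratin genes, cyt1 and cyt1l. That probe set was at 0.44 in dual minus control (adjusted p = 0.000208), 0.31 in Bdh2 minus control (adjusted p = 0.0195) and 0.077 in Atg7 minus control (adjusted p = 0.481). Its Bdh2 difference was thus far smaller than that of krt17. Keratin genes resemble one another, and to what extent these probes read more than 1 of them was not tested.

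pkp3a, the plakophilin gene of the desmosomal plaque, was highest in Atg7 morphants. It stood at 9.41, 9.37 and 9.42 in the dual arrays, at 9.25 in the Bdh2 array, at 9.79, 9.90 and 9.86 in the Atg7 arrays and at 9.09, 9.06 and 8.68 in the control arrays. The Atg7 arrays lay above every other array, and the control arrays, which spread more than those of any other group (SD 0.226, n = 3), lay below. pkp3a rose by 0.91 ± 0.094 in Atg7 minus control (1.87-fold, adjusted p = 0.000116), the 32nd largest rise of the 15502 probe sets. The rise was 0.78 to 0.98 with any single array left out. In dual minus control it rose by 0.46 ± 0.094 (adjusted p = 0.0027), and in the Bdh2 array it was at 0.31 ± 0.13 (adjusted p = 0.105). Without control replicate 3 the Bdh2 difference was 0.18, and with an intensity trend and robust variances its 0.31 passed (adjusted p = 0.0312).

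evpla was read at a signal below the array medians, without detection calls. It stood at 5.63, 5.55 and 5.81 in the dual arrays, at 5.63 in the Bdh2 array, at 5.54, 5.28 and 5.44 in the Atg7 arrays and at 5.0, 4.66 and 4.76 in the control arrays. All 7 arrays of the morphants of Atg7, Bdh2 or both lay above the 3 controls. evpla rose by 0.86 ± 0.10 in dual minus control (1.81-fold, adjusted p = 5.28e-05), by 0.83 ± 0.14 in Bdh2 minus control (1.77-fold, adjusted p = 0.00115) and by 0.62 ± 0.10 in Atg7 minus control (1.53-fold, adjusted p = 0.00261). It was the one gene of the 6 that passed with the same sign against control in all 3 groups.

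anxa2a went up in one single morphant and down in the other. It stood at 9.15, 9.21 and 9.13 in the dual arrays, at 9.06 in the Bdh2 array, at 10.01, 9.97 and 10.01 in the Atg7 arrays and at 9.38, 9.39 and 9.45 in the control arrays. No array of one group overlapped with those of another. anxa2a rose by 0.59 ± 0.055 in Atg7 minus control (1.51-fold, adjusted p = 5.49e-05) and fell by 0.35 in Bdh2 minus control (SE 0.0784, adjusted p = 0.00625). In dual minus control it fell by 0.24 (SE 0.0554, adjusted p = 0.00524).

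**Figure D2:**
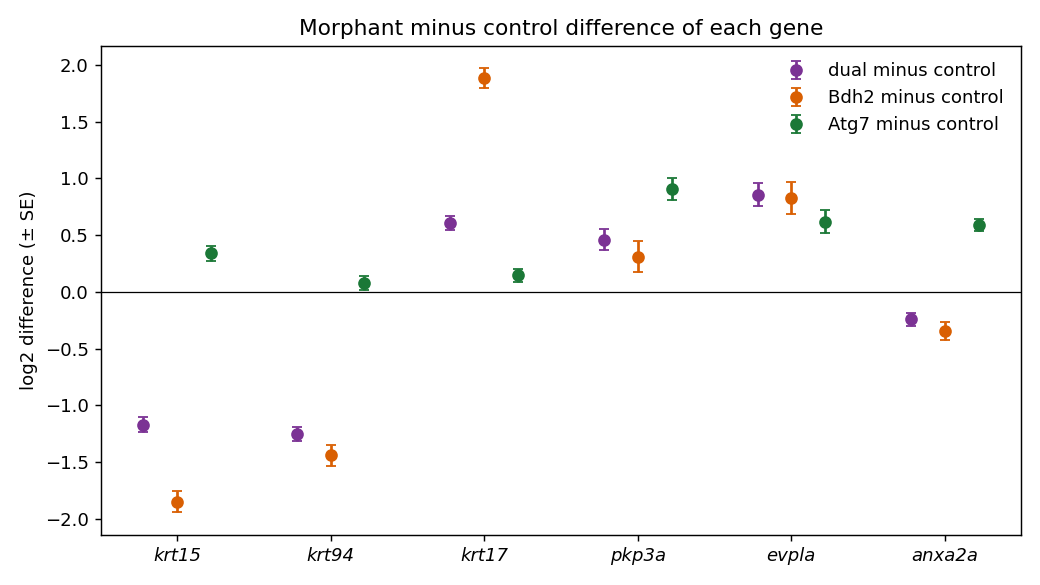
Log2 difference from control (y axis) of each gene (x axis) in dual, Bdh2 and Atg7 morphants, with standard errors of the fit as bars. evpla, pkp3a and krt17 are above 0 in all 3 comparisons, and of these only evpla passed the threshold in each. krt15 and krt94 are far below 0 in both comparisons with the Bdh2 morpholino, and the Bdh2 points rest on 1 array.

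Non-overlap of arrays is common in these data. The ranges of the arrays did not overlap in 46.4% of all probe sets for dual against control, in 44.1% for dual against Atg7 and in 30.4% for Atg7 against control, and 24.4% of probe sets separated the 4 arrays of Bdh2-injected embryos from the other 6. All of the 6 genes but pkp3a met that last condition, evpla by a margin of only 0.004. The share of probe sets called in Atg7 minus control depended on single arrays. The count of 1536 fell to 937 without control replicate 1, to 811 without control replicate 2, to 902 without control replicate 3 and to 1011 without Atg7 replicate 1, while the same 4 of the 6 genes passed each time.

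Adding the Bdh2 morpholino to the Atg7 morpholino was read from dual minus Atg7. The dose of each in the dual injection is not known, here and in dual minus Bdh2, so that dose and addition cannot be told apart. Of the 6 genes 5 passed, 1 higher and 4 lower, where 33.0% of all probe sets passed, 15.8% higher and 17.2% lower. krt15 was at 35.2% and krt94 at 39.7% of their level in Atg7 morphants (-1.51 ± 0.066, adjusted p = 1.11e-08, and -1.33 ± 0.065, adjusted p = 2.9e-08). anxa2a fell by 0.83 (SE 0.0554, adjusted p = 4.34e-07) and pkp3a by 0.45 (SE 0.0944, adjusted p = 0.00331). krt17 rose by 0.46 ± 0.060 (adjusted p = 0.000113). evpla was at 0.24 ± 0.10 (adjusted p = 0.09).

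Adding the Atg7 morpholino to the Bdh2 morpholino was read from dual minus Bdh2, where 2 of the 6 genes passed, 1 higher and 1 lower, against 12.1% of all probe sets (6.53% higher and 5.53% lower). krt17 was lower in dual than in Bdh2 morphants, at 41.2% of the level (-1.28 ± 0.085, adjusted p = 5.08e-06), and only 8 probe sets, krt17 included, were as low in this comparison. krt15 was 1.60-fold higher in dual than in Bdh2 morphants (0.68 ± 0.093, adjusted p = 0.000641). For krt94, pkp3a, evpla and anxa2a the differences were 0.19 ± 0.092, 0.15 ± 0.13, 0.029 ± 0.14 and 0.10 ± 0.078, with adjusted p from 0.22 to 0.925.

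Whether the effects of both morpholinos added up on the log2 scale was tested as dual minus Atg7 minus Bdh2 plus control. Of the 6 genes 3 passed, all of them below the additive level, where 8.13% of all probe sets passed and 4.32% were below. krt17 measured 9.77 in dual morphants against 11.19 if the single differences were added, a departure of -1.42 ± 0.10 (adjusted p = 1.06e-05). pkp3a measured 9.40 against 10.16 (-0.76 ± 0.16, adjusted p = 0.0146), and anxa2a 9.16 against 9.65 (-0.49 ± 0.096, adjusted p = 0.00878). For evpla the departure was -0.59 ± 0.18 (adjusted p = 0.0644), for krt15 0.34 ± 0.11 (adjusted p = 0.0947) and for krt94 0.11 ± 0.11 (adjusted p = 0.647). Each additive level takes in the single Bdh2 array. Since the dose of each morpholino in the dual injection is not known, a departure from additivity and a difference in dose cannot be told apart.

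**Figure D3:**
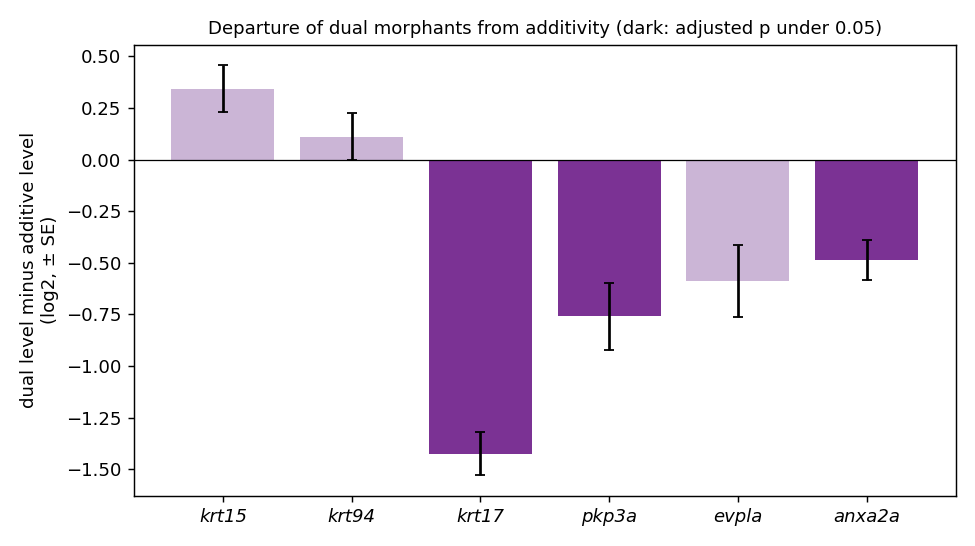
Measured dual level minus the level expected if the Atg7 and Bdh2 differences from control were added (y axis, log2, with standard errors) for each gene (x axis). krt17, pkp3a and anxa2a (dark bars) passed the threshold, all below 0; krt17 is lowest at -1.42.

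The wider keratin family showed both directions. Over all 18 keratin probe sets with 1 gene symbol, 5 rose and 7 fell in dual minus control, 4 rose and 6 fell in Bdh2 minus control, and 4 rose and 1 fell in Atg7 minus control. The shares called over all probe sets were 32.5%, 28.2% and 9.91%. With 1 probe set for each of the 15 keratin genes, the median difference was -0.031 in dual minus control, 0.14 in Bdh2 minus control and 0.14 in Atg7 minus control, against -0.023, 0.034 and -0.012 over all genes. krt15 and krt94 had the lowest differences of the 18 probe sets in dual minus control and in Bdh2 minus control, and krt17 had the highest in the Bdh2 array. Of the other keratin genes, krt1-19e rose by 0.96 ± 0.066 in dual minus control (adjusted p = 5.55e-07) and by 0.42 ± 0.066 in Atg7 minus control (adjusted p = 0.00213). Its second probe set was at 0.74 and 0.47 in these comparisons.

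krt91 also rose in dual minus control, by 0.48 ± 0.068 (adjusted p = 0.000213), and in Atg7 minus control by 0.34 ± 0.068 (adjusted p = 0.00908), although it fell by 0.38 in the Bdh2 array (adjusted p = 0.0121). Its second probe set rose by 0.44 in dual morphants (adjusted p = 0.00607), fell by 0.57 in the Bdh2 array (adjusted p = 0.0121) and had no call in Atg7 minus control (0.26, adjusted p = 0.137). krt97 fell in every comparison with control, by 0.79 in dual (adjusted p = 6.26e-07), by 0.51 in Bdh2 (adjusted p = 0.000502) and by 0.39 in Atg7 morphants (adjusted p = 0.0011). krt1-19d fell by 0.73 in dual minus control (adjusted p = 3.12e-06) and by 0.93 in dual minus Atg7 (adjusted p = 3.8e-07), with no call in Bdh2 minus control (-0.14, adjusted p = 0.262). krt4, krt5 and krt8, type II keratins of simple or surface epithelium, were at 0.13, -0.031 and -0.14 in dual minus control, and none of them passed. The probe set used for krt91 carries a suffix (_x_at) that marks probes shared with other transcripts. That used for krt1-19e carries the suffix _a_at, which marks probes common to transcripts of the same gene.

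**Figure D4:**
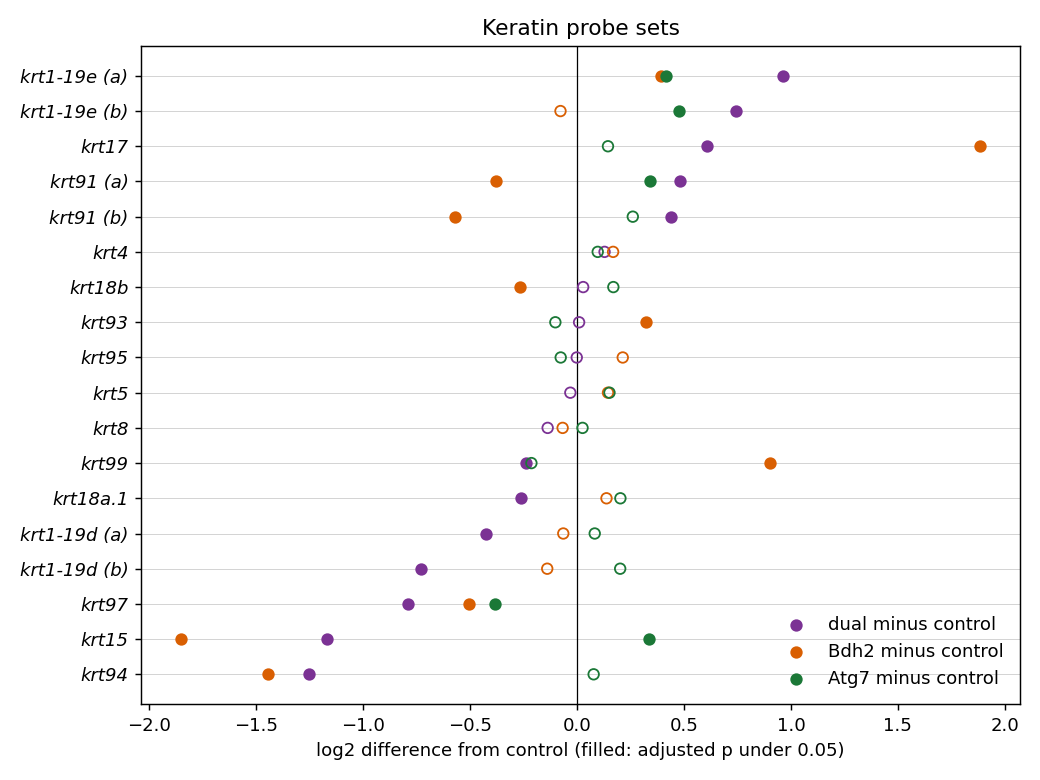
Log2 difference from control (x axis) of every keratin probe set with 1 gene symbol (y axis, sorted by the dual difference, with a and b for genes read by more than 1 probe set) in dual, Bdh2 and Atg7 morphants. Filled points passed the threshold; krt15 and krt94 lie at the bottom and krt17 has the highest Bdh2 point.

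The list of desmosome and cornified envelope genes holds pkp3a and evpla. Both are among the genes counted as higher in dual and in Atg7 minus control, and evpla is among those in Bdh2 minus control. Of 12 measured genes 8 rose and 0 fell in dual minus control (median 0.32), 7 rose and 0 fell in Bdh2 minus control (median 0.35), and 8 rose and 0 fell in Atg7 minus control (median 0.31). Over all probe sets 16.7% rose in dual, 15.0% in Bdh2 and 6.26% in Atg7 minus control. Genes that did not pass include tgm1l4 in Atg7 minus control, at -0.21 (adjusted p = 0.0758). The Atg7 count of 8 was 5 without Atg7 replicate 1, control replicate 2 or control replicate 3. The desmosomal cadherin gene dsg2.1 rose by 0.57 ± 0.072 in dual minus control (adjusted p = 8.71e-05) and by 0.58 ± 0.072 in Atg7 minus control (adjusted p = 0.000429). pkp1b, another plakophilin gene, rose by 0.53 ± 0.084 in Atg7 minus control (adjusted p = 0.00209), and jupa, which encodes plakoglobin, by 0.32 ± 0.054 in dual minus control (adjusted p = 0.000725). In dual minus Atg7, where 33.0% of all probe sets were called, 2 of the 12 rose and 2 fell (median -0.032). Those that fell were ppl, the gene of the plakin periplakin, by 0.32 (adjusted p = 0.00193), and pkp3a. tgm1l4, named after the transglutaminases that cross-link the cornified envelope, rose by 0.30 in dual minus Atg7 (adjusted p = 0.00476). Measured against the additive level, 5 of the 12 genes were lower and 0 higher in dual morphants (median -0.45, against -0.037 over all genes). Over all probe sets 4.32% were lower. The count of 5 was 3 without control replicate 2 and 8 without dual replicate 3. The probe set of jupa carries a shared-probe suffix.

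Among the annexins and their S100 partners, the list that holds anxa2a, 8 of 20 genes rose and 0 fell in Atg7 minus control (median 0.15), while 5 rose and 6 fell in dual minus control (median -0.069). In dual minus Atg7 3 rose and 11 fell (median -0.26). In Bdh2 minus control, which rests on 1 array, the median of the 20 genes was -0.224, against 0.034 over all genes. Of the 20 differences 7 were above 0 there. Over all probe sets 9.91% were called in Atg7 minus control, 32.5% in dual minus control and 33.0% in dual minus Atg7. ahnak, which encodes a very large protein bound by annexin A2 in mammals, rose by 0.73 ± 0.078 in dual minus control (adjusted p = 2.39e-05) and by 0.72 ± 0.078 in Atg7 minus control (adjusted p = 0.000161), unlike anxa2a, which fell in dual morphants. anxa4 fell by 0.65 (adjusted p = 3.12e-06) and anxa11a by 0.46 (adjusted p = 8.83e-05) in dual minus control, while anxa1c rose by 0.40 (adjusted p = 0.000131). anxa2b, the paralogue of anxa2a, had no call in either comparison (adjusted p = 0.511 in dual and 0.796 in Atg7 minus control). It was read below the array medians (control mean 5.049, against 9.406 for anxa2a), where a change may not show. Leaving out control replicate 1, 2 or 3 gave 5, 3 or 4 in place of the 8 in Atg7 minus control, and leaving out Atg7 replicate 1 or 3 gave 4. The probe set of anxa11a carries the suffix _a_at.

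Of 19 tight junction genes 6 rose and 0 fell in Atg7 minus control, where 9.91% of all probe sets were called, and 1 rose and 9 fell in dual minus Atg7, where 33.0% were called. These comparisons share the Atg7 arrays. In Bdh2 minus control 4 rose and 0 fell (28.2% of all probe sets were called), and in dual minus Bdh2 0 rose and 3 fell (12.1%). The claudin gene cldn7b, whose probe set carries a shared-probe suffix, rose by 0.35 in Atg7 minus control (adjusted p = 0.017) and fell by 0.53 in dual minus Atg7 (adjusted p = 0.000322). cldn23.1 rose by 0.62 in Atg7 minus control (adjusted p = 0.00137), and cgnl1, a paralogue of the junction plaque gene cingulin, rose by 0.48 in dual minus control (adjusted p = 8.2e-05). Dual morphants had 2 of the 19 higher and 2 lower than control, where 32.5% of all probe sets were called. This count of 4 was 1, 2 and 1 without control replicate 1, control replicate 2 and dual replicate 2. Leaving out control replicate 1, 2 or 3 gave 2, 3 or 1 in place of the 6 in Atg7 minus control, and leaving out Atg7 replicate 1 or 3 gave 2 or 3.

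Of 8 hemidesmosome and basement membrane genes, 2 rose and 1 fell in dual minus control and 3 rose and 0 fell in Atg7 minus control. The dual count, 3 of 8, is near the 32.5% of all probe sets called there, and 9.91% were called in Atg7 minus control. pleca, the gene of the plakin plectin, which ties keratin filaments to hemidesmosomes, rose by 0.84 ± 0.055 in dual minus control (adjusted p = 3.54e-07) and by 0.52 ± 0.055 in Atg7 minus control (adjusted p = 0.000129). frem3, of a family of basement membrane proteins, rose by 0.80 ± 0.059 in Atg7 minus control (adjusted p = 7.31e-06) and by 0.21 in dual minus control (adjusted p = 0.0149). cdh1, which encodes the E-cadherin of adherens junctions, fell by 0.53 in dual minus Atg7 (adjusted p = 0.000633) and rose by 0.37 in Atg7 minus control (adjusted p = 0.0216), a call that ended without Atg7 replicate 1, control replicate 2 or control replicate 3, which left 0 of the 5 adherens junction genes called. ctnnb1, a beta-catenin gene, rose by 0.28 in dual minus control (adjusted p = 0.00541).

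Of 19 epidermal regulators and proteases, 4 rose and 2 fell in dual minus control and 5 rose and 0 fell in Atg7 minus control. The dual count, 6 of 19, is near the 32.5% of all probe sets called there, and the share over all probe sets in Atg7 minus control was 9.91%. The Atg7 count of 5 was 3, 3 and 2 without Atg7 replicate 1, Atg7 replicate 3 and control replicate 3. tfap2c, an AP-2 transcription factor gene, rose by 0.77 ± 0.11 in dual minus control (adjusted p = 0.00029), and the grainyhead-like gene grhl1 by 0.33 (adjusted p = 0.00323). klf17 fell by 0.33 (adjusted p = 0.00363) and epcam, an epithelial adhesion gene whose probe set ends in _a_at, by 0.25 (adjusted p = 0.00514) in the same comparison. spint1a, a gene of a serine protease inhibitor of the skin, rose by 0.41 ± 0.073 in Atg7 minus control (adjusted p = 0.00473). tp63, the master regulator of basal epidermis, had no call in dual minus control (adjusted p = 0.0584) or Atg7 minus control (adjusted p = 0.136).

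**Figure D5:**
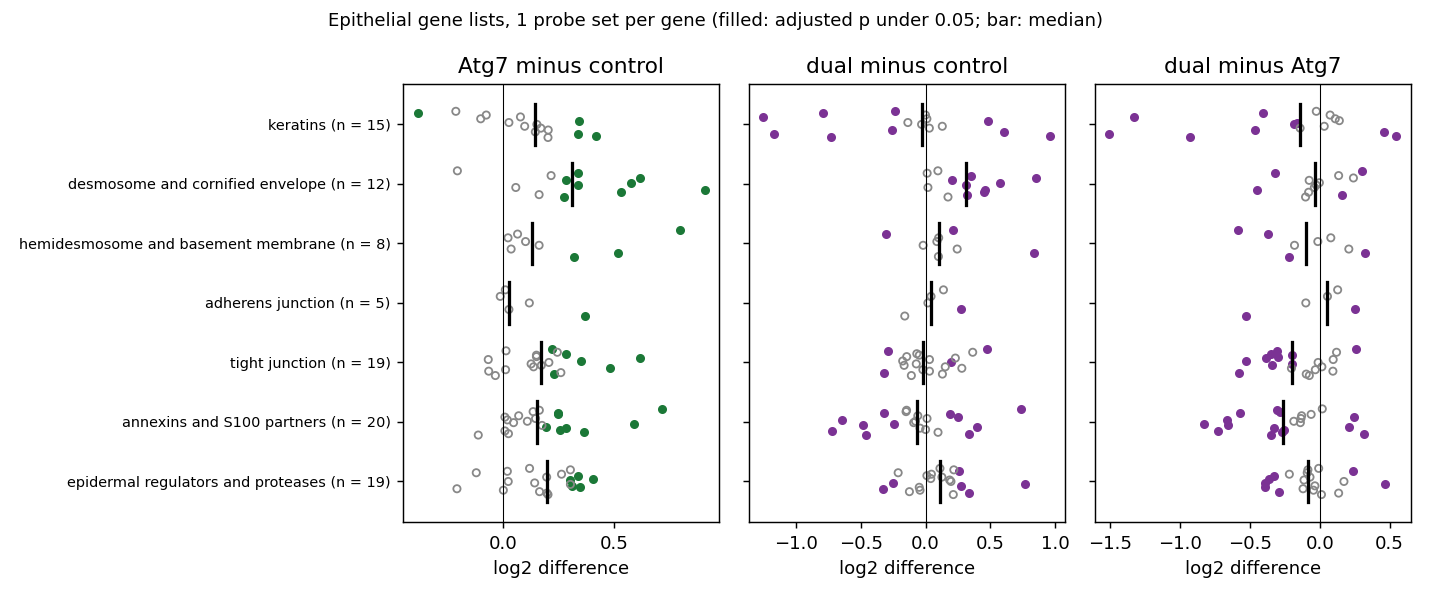
Log2 difference (x axis) of each measured gene of 7 epithelial lists (y axis, with the number of genes) in Atg7 minus control, dual minus control and dual minus Atg7, with 1 probe set per gene and a bar at the list median. Filled points passed the threshold; in the desmosome and cornified envelope list none of the filled points lies below 0 against control.

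Markers of other cell types that lie in or near the skin also moved. Over all probe sets 32.5% were called in dual minus control, 28.2% in Bdh2 minus control and 9.91% in Atg7 minus control. All 3 measured fin fold genes, and1, and2 and and3, fell in each comparison with control, and their summed linear level was 46.3% to 47.9% of the control mean in dual arrays, 28.7% in the Bdh2 array, 60.2% to 66.3% in Atg7 arrays and 97.1% to 104% in control arrays. The summed level of 4 mucous cell markers was 72.4% to 74.1% in dual, 65.5% in Bdh2 and 85.1% to 95.1% in Atg7 arrays, against 98.5% to 102% in control arrays, with 3 of 4 lower and 0 higher in dual minus control. In Atg7 minus control 1 fell and 1 rose, the mucin gene muc5.1 (0.94, adjusted p = 0.000359). Of 4 ionocyte markers 2 fell and 0 rose in dual minus control, and the sum of the 4 was 69.5% to 75.8% of the control mean in dual, 64.8% in Bdh2, 109% to 119% in Atg7 and 96.3% to 105% in control arrays. That sum follows the 2 that fell, atp1b1b and atp1a1a.3 (control means 8.475 and 7.281). The other 2, rhcgb and atp1a1a.5, were read at a low signal (3.959 and 3.397). For the 15 keratins together the sum was 104% to 108% in dual, 108% in Bdh2, 106% to 109% in Atg7 and 99.8% to 100% in control arrays. A linear sum follows the brightest probe sets, krt4 first (control mean 13.95 on the log2 scale). The falls of krt15 and krt94 (control means 7.90 and 7.93) hardly enter it. The part of these cell types in the results for the 6 genes was not tested.

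Genes listed as markers of neutrophils and macrophages, of gut epithelium and of the notochord sheath varied between the groups as well. Of 9 neutrophil and macrophage genes 0 rose and 3 fell in dual minus control, near the 32.5% of all probe sets called there. Those that fell were mmp13a (-1.416), mmp9 (-0.832) and lyz (-0.415), while mpx, coro1a and lcp1 had no call. In Atg7 minus control, where 9.91% were called, 2 rose, the matrix metalloproteinase genes mmp9 and mmp13a, and 4 fell. The sum of the 9 genes was 73.7% to 76.9% of the control mean in dual, 57.1% in Bdh2, 108% to 112% in Atg7 and 98.6% to 102% in control arrays. The Atg7 sum takes in the rises of mmp9 (1.76) and mmp13a (1.49). The 4 that fell, mpx, lyz, coro1a and lcp1, were at -0.355, -0.497, -0.273 and -0.401 in Atg7 minus control. The sum and most of the called genes thus went opposite ways there. Which cells gave the signal of mmp9 and mmp13a was not tested. The sum of 8 gut epithelium genes was 93.8% to 102% in dual, 107% in Bdh2, 79.6% to 82.6% in Atg7 and 97.9% to 101% in control arrays. It follows the brightest genes, apoa4b.1 and fabp2 (control means 12.377 and 11.605). Others were read at a low signal, where a change may not show. These were slc15a1b, vil1, chia.1, chia.2 and fabp6 (control means 2.947, 3.168, 3.691, 3.873 and 4.651). In Atg7 minus control 0 of the 8 rose and 1 fell, fabp2 (-0.539, adjusted p = 8.77e-05). In dual minus control 0 rose and 1 fell, and in Bdh2 minus control 1 rose and 0 fell. The sum of 7 notochord sheath genes was 103% to 109% in dual, 91.5% in Bdh2, 115% to 124% in Atg7 and 99.3% to 101% in control arrays. Of the 7 genes 1 rose and 1 fell in dual minus control and 2 rose and 0 fell in Atg7 minus control. In Bdh2 minus control, where 28.2% of all probe sets were called, 2 rose and 2 fell. The lowest log2 intensity on these arrays was 2.48, and there were no detection calls. None of these markers can therefore be called present or absent from its level alone.

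The genes closest to each member were ranked by Pearson's r over the 10 arrays. These arrays form 4 groups, so differences between group means enter every r, and no test was made. krt94 was closest to the annexin gene anxa4 (0.997), to tubb4bl (0.996) and to phyhd1 (0.996), and krt15 to si:dkey-247k7.2 (0.996), ndrg4 (0.995) and cp (0.991). krt15 and krt94 reached 0.975 with each other. cp, the gene of the plasma copper protein ceruloplasmin, was at -1.77 in dual minus control and at -2.41 in Bdh2 minus control.

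anxa2a was closest to rasd1 (0.987), to lnx1 (0.985) and to the matrix metalloproteinase gene mmp9 (0.985). mmp9 averaged 5.92 in dual, 6.12 in Bdh2, 8.51 in Atg7 and 6.76 in control arrays, with the same order of Atg7 above control above both groups that carried the Bdh2 morpholino. pkp3a was closest to tm2d2 (0.98), tcima (0.98) and the transcription factor gene atf4b (0.972). krt17 was closest to rfx4 (0.98), srp54 (0.978) and cox17 (0.975), all of which moved less than krt17, at 0.82, 0.44 and 0.63 in Bdh2 minus control against 1.89. evpla was closest to rdh12l (0.973), ect2 (0.966) and vma12 (0.955). Among the members themselves r ranged from -0.86 between krt15 and krt17 to 0.975, and pkp3a with krt17 gave 0.009.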

How the data were processed

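The authors deposited log2 intensities, 1 value per probe set and array, and per the submitters' processing notes used Affymetrix Expression Console. The summarisation, background correction and normalization are not given in the sources used here. The log2 scale was read from the range of 2.48 to 14.9. Array medians were near equal; if levels had been equalised before deposit, a shift of all transcripts would be hidden. Of 15617 probe sets 115 AFFX controls were left out. Of 15502 tested, 10795 had 1 gene symbol, 135 several and 4572 none. Those with several or none were not named. Current symbols came by Entrez ID from the RefSeq table of GRCz12tu, which held 10711 of them. No genome or sequence was used. All 10 arrays and 4 groups were fitted in limma 3.58.1 (R 4.3.3, lmFit, then eBayes), with 6 residual degrees of freedom and Benjamini-Hochberg adjustment. The procedure was tested on simulated data for Atg7 minus control only. Comparisons with the single Bdh2 array and the departure from additivity were not simulated. The number of arrays limits the precision.

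The 6 genes, 7 pathway lists and 6 marker lists were chosen with earlier results of these data known, and the rises of pkp3a, evpla and anxa2a in Atg7 morphants were among them. In each list 1 probe set per gene was used, that with the highest mean. Named are all members, the 2 called genes of smallest p in each direction for each list in Atg7 minus control, dual minus control and dual minus Atg7 (given in part), and the 3 genes most like each member. Other list genes named (krt4, krt5, krt8, anxa2b, tp63, mmp9, mmp13a, mpx, lyz, coro1a, lcp1, muc5.1 and tgm1l4 in Atg7 minus control) were chosen after their values were seen. So were the neighbours on the chromosome. Alternatives were quantile normalization, median centring, a filter on low signal, an intensity trend with robust variances, array weights, fits of the compared groups alone, a replicate block and leaving out each array.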

Additional observations from a re-analysis of the deposited data

Results flagged for a closer look

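The effect of the Bdh2 morpholino differed between embryos with and without the Atg7 morpholino for 3 of the 6 genes, by the test of departure from additivity in the limma fit. Of all probe sets 8.13% passed this test, and 4.32% of all probe sets passed it with a negative sign. The 6 genes were chosen with earlier results known, so the count is no test of them against all probe sets. For krt17 the difference was -1.42 (adjusted p = 1.06e-05), where krt17 rose by 0.46 in dual minus Atg7 and by 1.89 in Bdh2 minus control. For pkp3a it was -0.76 (adjusted p = 0.0146), set against -0.45 (dual minus Atg7) and 0.31 (Bdh2 minus control), and the 0.31 did not pass the threshold. For anxa2a it was -0.49 (adjusted p = 0.00878), set against -0.83 (dual minus Atg7) and -0.35 (Bdh2 minus control). All 3 rest on the single Bdh2 array. The dose of each morpholino in the dual injection is not known, so that a difference in dose cannot be told apart from these departures.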

How the results depend on the processing

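None of the calls of the 6 genes was lost under an alternative that tested the gene. The filter on low signal removed evpla, so that its calls were not tested there and 3 genes in Atg7 minus control, 5 in dual minus control and 4 in Bdh2 minus control were left of 4, 6 and 5. Of 570 values of single genes under the alternatives 559 kept their direction and side of the threshold, 9 came past it and 2 changed sign. Many of the 570 could not change direction. The intensity trend, the filter on low signal and fits of the compared groups alone leave a log2 difference as it was. So does leaving out an array of a group outside the comparison. Leaving out the single Bdh2 array repeated the reported fit for comparisons without it. Both changes of sign were those of evpla in dual minus Bdh2, which never passed: it was at -0.032 with array weights and ranged from -0.044 to 0.086 with single arrays left out. The departure from additivity of krt15 and evpla passed with array weights (adjusted p = 0.032 and 0.0283), so that 5 of the 6 genes were called there, and the cause was not tested. Array weights also raised the count over all probe sets to 3063 in dual minus Bdh2 (1870 in the fit reported) and to 1909 for the departure from additivity (1261). The count in Atg7 minus control ranged from 811 to 1560 with single arrays left out, which takes a sample and a residual degree of freedom. With the replicate number as a block (replicate block) the counts were 1006 in Atg7 minus control, 1144 in dual minus Bdh2 and 708 for the departure from additivity. Counts within lists moved as well. In Atg7 minus control the 4 of 15 keratin genes called became 7 of 13 with the filter on low signal. With an intensity trend they became 9 of 15. The 8 desmosome genes became 5 and the 8 annexin and S100 genes 4 with the block. With the filter the 3 hemidesmosome genes became 1 of 4 and the 5 regulators 8 of 16. The counts over all probe sets moved too. The 1536 called of 15502 became 1786 of 7751 with the filter and 2111 of 15502 with the trend. With the block they were 1006, as given above. In dual minus control the 4 tight junction genes became 8 with the trend and 9 with array weights. There the count over all probe sets went from 5041 to 5440 and 6603. For departure from additivity the 5 desmosome genes became 8 with the trend, where the count over all probe sets went from 1261 to 1675. Same-numbered arrays of different groups did not deviate together: 2 of 9 pairs had r over 0.1, and 1 of 9 arrays was closest to an array of its own number. Fits of the compared groups alone were not possible for comparisons with the single Bdh2 array. The signal over background cannot be judged without detection calls.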
